A study of Homo sapiens with 3 samples.

Results

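Histone genes were taken by name from the ribosome profiling tables of HEK293T cells, an established line derived from human embryonic kidney and transformed to express large T antigen of SV40. Symbols beginning with HIST and a cluster number were called replication-dependent, and symbols beginning with H1F, H2AF or H3F3 were called variants. Of the 8812 transcripts listed in all 3 libraries, 34 were histone genes, and no histone gene was listed in fewer than 3. The replication-dependent genes numbered 26 (2 H1, 5 H2A, 8 H2B, 5 H3 and 6 H4). The variants numbered 8 and were H1FX, H2AFV, H2AFX, H2AFY2, H2AFZ, H3F3A, H3F3B and H3F3C. Each histone gene had 1 transcript in the tables. The GENCODE v44 annotation holds many more copies, namely 6 H1, 17 H2A, 18 H2B, 13 H3 and 15 H4 genes of the replication-dependent kind, and the copies outside the tables were not analysed here.

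Nucleosomes are built from pairs of H2A, H2B, H3 and H4, and H1 sits on the linker DNA. Replication-dependent histones are made in bulk during S phase from clustered, mostly intronless genes. Their mRNAs end in a short stem-loop in place of a poly(A) tail, and the stem-loop binding protein SLBP acts on this element in processing, translation and decay of the message. Variant histones are made throughout the cell cycle, usually from spliced and polyadenylated mRNAs. H2AFZ and H2AFV encode the H2A.Z proteins, H2AFX encodes the H2A.X that is phosphorylated around DNA breaks, H2AFY2 encodes a macroH2A, and H3F3A and H3F3B encode H3.3.

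The study's groups used here were 2 libraries of untreated cells (Untreated A and Untreated B) and 1 library of cells kept for 24 h in G418 at 500 µg/mL (G418 A). Aminoglycosides such as G418 act on the decoding centre of the ribosome, and some ribosomes then read through the normal termination codon (NTC). Libraries held 5857230, 9477972 and 7216039 reads in the order Untreated A, Untreated B, G418 A, and values given in threes below follow that order. The study calls its replicate libraries biological replicates. Of 6 HEK293 lineage markers 5 were listed in all 3 tables and 1, PAX2, in only 1 table, and the 6 markers of other lineages were listed in none. Fewer cells in S phase and less ribosome occupancy per cell cannot be told apart in these bulk samples.

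The stem-loop was searched for in the sequence after each stop codon, because it marks the end of a replication-dependent message and lies where readthrough would be measured. The search took a stem of 6 pairs whose first arm starts with GG and continues with only C or T, and whose second arm ends in CC. The loop had 4 bases, more than 1 of them T. At most 1 position without a Watson-Crick pair was allowed, on the sense strand within 120 nt of the stop codon. These rules were written for the histone element, so the rate in other transcripts is not that of hairpins in general. A match was found in 23 of 26 replication-dependent genes and in 1 of 8 variants, H2AFX. Among other transcripts with a 3′UTR at least as long as the window, 6 of 7966 had a match (0.0753%). The match began 23 to 57 nt after the NTC, with a median of 37 nt. One example from each family, together with the odd cases, follows in DNA letters read from hg38 with the paired stems in capitals and 5 bases on either side; coordinates cover the stem and loop alone, and all lie in the 3′UTR or just past its annotated end.
HIST1H1E, chr6:26157095-26157110, plus strand: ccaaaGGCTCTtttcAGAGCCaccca
HIST1H2AG, chr6:27133515-27133530, plus strand: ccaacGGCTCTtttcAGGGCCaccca
HIST1H2BL, chr6:27807484-27807499, minus strand: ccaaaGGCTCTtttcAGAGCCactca
HIST1H3H, chr6:27810516-27810531, plus strand: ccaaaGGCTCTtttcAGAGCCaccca
HIST1H4J, chr6:27824459-27824474, plus strand: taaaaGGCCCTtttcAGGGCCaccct
HIST2H4A, chr1:149833032-149833047, plus strand: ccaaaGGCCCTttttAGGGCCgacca
H2AFX, chr11:119094898-119094913, minus strand: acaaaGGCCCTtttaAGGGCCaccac

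The first arm of the stem read GGCTCT in all 17 matches of H1, H2A, H2B and H3 genes and GGCCCT in all 6 H4 genes. The search itself required GG followed by only C or T in this arm. The variant H2AFX carried the H4 form. HIST1H2AG was the only gene whose stem held a position without a Watson-Crick pair. The 3 replication-dependent genes without a match were HIST1H2AC, HIST2H2BF and HIST1H2BN, and for these the tables held spliced transcripts of 2, 2 and 3 exons. In 20 of the 23 replication-dependent matches the whole stem-loop lay before the first in-frame stop codon after the NTC, or no such stop codon was found. That stop codon was sought in hg38 past the annotated end where needed. In HIST1H1T, and in the variant H2AFX, it lay inside the stem-loop, and in HIST3H2A and HIST1H3H it lay before the stem-loop. In HIST1H3H the first in-frame stop codon began 16 nt after the NTC and the stem-loop 32 nt after it.

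**Figure D1:**
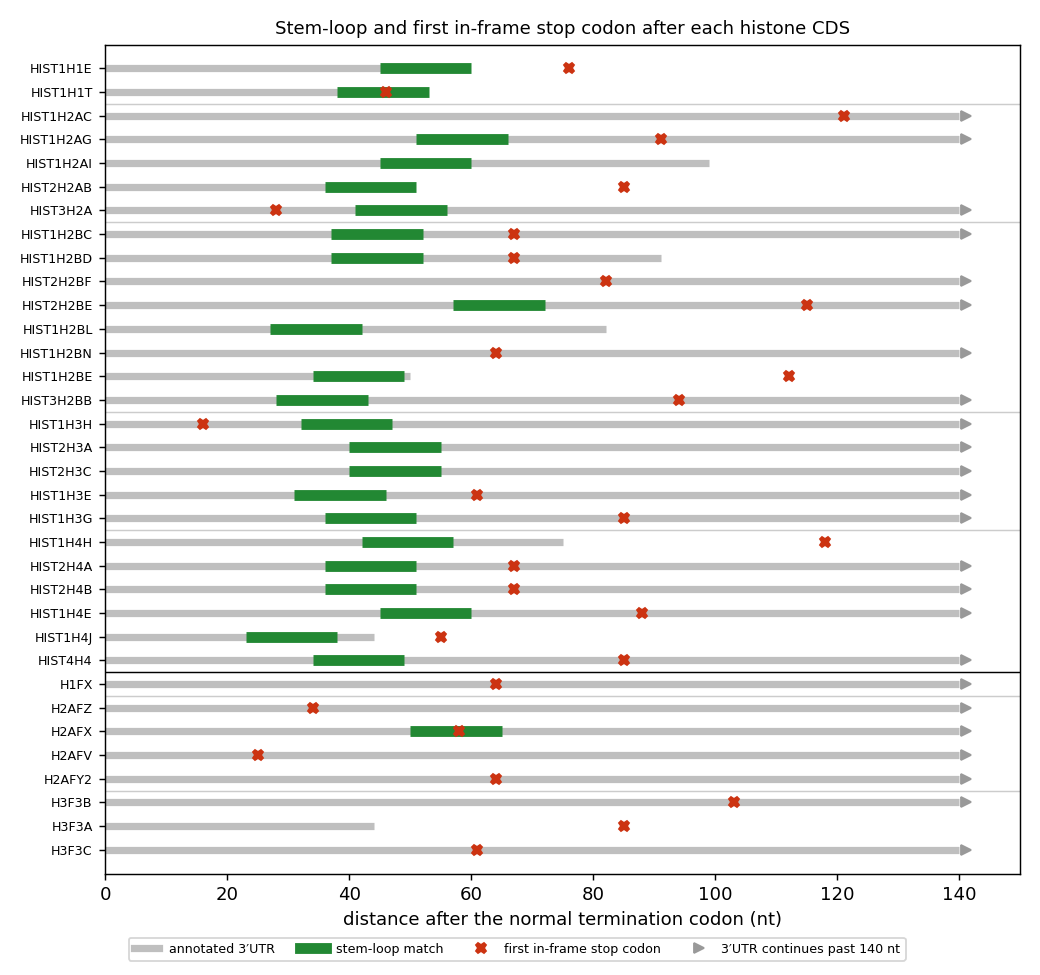
Distance after the normal termination codon in nt (horizontal) of the stem-loop match (green), the first in-frame stop codon (red cross) and the annotated 3′UTR (grey) for each of the 34 histone genes, with replication-dependent genes above the black line. Stem-loops begin 23 to 57 nt after the termination codon in 23 of 26 replication-dependent genes, and H2AFX is the one variant with a match.

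The deposited number of in-frame 3′UTR stop codons was 0 for 7 of 26 replication-dependent genes (26.9%) and for 1 of 8 variants, H3F3A, against 4.66% of all 8812 transcripts. Those 7 genes were HIST1H1E, HIST1H2AI, HIST1H2BE, HIST1H2BL, HIST1H4H, HIST1H4J and HIST2H2AB, whose annotated 3′UTRs are 40 to 99 nt long. The median number of in-frame stop codons was 7 in replication-dependent genes, 8 in variants and 14 over all transcripts. Annotated 3′UTRs of replication-dependent genes ranged from 40 to 3575 nt, and 10 of 26 exceeded 1000 nt. In GENCODE v44 the same 26 transcripts have a median 3′UTR of 61 nt and 18 have less than 100 nt, so the whole-3′UTR values of these genes depend on the annotation. Replication-dependent genes ended in UAA in 11 cases, UAG in 6 and UGA in 9, or 42.3%, 23.1% and 34.6%, against 27.8%, 22.0% and 50.1% over all transcripts.

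Copies share sequence, and the authors kept a single alignment for reads that match several places. The share of a CDS's 28-base stretches, its ends left out, that also occur in a protein-coding transcript of another gene was computed from GENCODE v44. Whole transcripts were searched, UTRs included, and pseudogenes and noncoding transcripts were not. It ranged from 0% to 100% in replication-dependent genes with a median of 31.8%, and 17 of 26 shared at least 10%. HIST1H4J, HIST2H3A, HIST2H3C, HIST2H4A and HIST2H4B shared all of their CDS. HIST2H4A and HIST2H4B shared theirs only with each other. Their CDS reads were 4304 and 4201, 9372 and 9094, and 4126 and 4172 in the 3 libraries, which is nearly an even division, and these genes are not independent of each other. In the 80 nt after the stop codon less than 10% of such stretches were found to be shared in 22 of 26 replication-dependent genes, and none in 13. These shares are lower bounds. Bases past a gene's annotated end were taken from the genome, whereas other genes were searched only up to their annotated ends. The median 3′UTR of these genes in GENCODE v44 is 61 nt, and stretches that cross the stop codon were not searched.

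By CDS density, the H4 genes HIST1H4H and HIST2H4A and the linker histone gene HIST1H1E were among the most heavily occupied histone genes. HIST1H4H had 2819.8, 2994 and 3500.3 RPKM, HIST2H4A had 2634, 3544 and 2049 RPKM, and HIST1H1E had 2471, 3181 and 2625 RPKM. The order of these 3 genes differed between libraries, so they are not separated beyond the spread. At the other end, the testis linker histone HIST1H1T had 8.09, 11.2 and 8.68 RPKM and HIST1H3G, named here after its values were seen, had 14.5, 7.54 and 5.13 RPKM. The median replication-dependent gene had 1069.8, 1322 and 714 RPKM and the median variant 347, 452 and 437 RPKM, against 18.4, 19.8 and 21.4 RPKM over all transcripts. H2AFZ was the highest variant in every library, at 1370.2, 1529 and 1384 RPKM, and H2AFY2 the lowest, at 25.3, 27.4 and 31.3 RPKM.

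**Figure D2:**
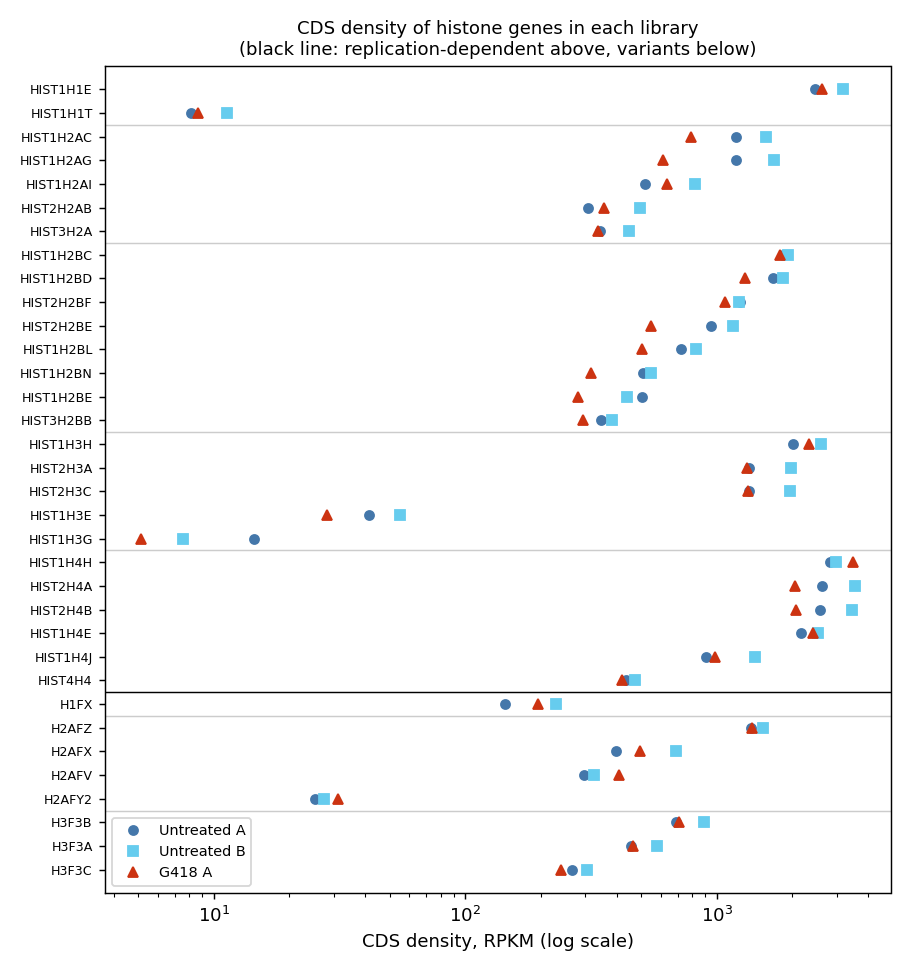
CDS density in RPKM on a log axis (horizontal) of each histone gene in Untreated A (circles), Untreated B (squares) and G418 A (triangles). In all 8 H2B genes the G418 value lies left of both untreated values, and in HIST1H4H it lies right of both.

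The first question was whether the ribosome profiling reads on histone CDSs changed with G418. No mRNA level was used here, so the changes below are not changes per message. CDS reads of 8 replication-dependent genes and of no variant were lower in G418 A at an adjusted p under 0.05 (edgeR quasi-likelihood test over all 8812 transcripts, Benjamini-Hochberg adjustment), and no histone gene was called higher. Over all transcripts 0.374% were called lower and 1.13% higher. The 8 genes made up 24.2% of the 33 transcripts called lower. They were 2 of 5 H2A genes, 4 of 8 H2B genes and the identical pair of H4 genes HIST2H4A and HIST2H4B. With 2 untreated libraries and 1 G418 library the test has 1 residual degree of freedom, so the spread is borrowed from all transcripts and the G418 library is assumed to vary like the untreated ones. DESeq2's test called 4 of the 26 replication-dependent genes lower.

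HIST1H2AG, a core H2A gene, fell from 1198 and 1694 RPKM in the untreated libraries to 614 RPKM in G418 A. Its log2 change was -1.33 ± 0.20 (SE; adjusted p = 5.88e-08, edgeR). It was the third largest fall of the 33. HIST2H2BE, an H2B gene outside the main cluster on chromosome 6, had 949, 1163 and 548 RPKM, a log2 change of -1.04 ± 0.19 (adjusted p = 0.000134, edgeR). HIST1H2AC had 1190.4, 1569 and 791 RPKM and a log2 change of -0.90 ± 0.19 (adjusted p = 0.00131, edgeR). In each of these genes the G418 value lay below both untreated values.

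The other called H2B genes behaved likewise. HIST1H2BE had 503, 438 and 279.9 RPKM (log2 change -0.85 ± 0.20, adjusted p = 0.00637, edgeR). HIST1H2BN had 510.4, 547 and 318 RPKM (-0.83 ± 0.20, adjusted p = 0.00546, edgeR). HIST1H2BL had 723, 830.4 and 507 RPKM (-0.71 ± 0.19, adjusted p = 0.0243, edgeR). All 3 fell outside the untreated range. Under DESeq2's test HIST1H2BE and HIST1H2BL were not called (adjusted p = 0.0594 and 0.0880). The H4 pair were the weakest calls. HIST2H4A had 2634, 3544 and 2049 RPKM (-0.69 ± 0.19, adjusted p = 0.0263, edgeR; 0.0975 with DESeq2). HIST2H4B had 2571, 3439 and 2072 RPKM (-0.63 ± 0.19, adjusted p = 0.0489, edgeR), and its call was lost with DESeq2's size factors (adjusted p = 0.0562), with the deposited whole-number counts (0.0606) and with DESeq2's test (0.158).

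The remaining replication-dependent genes did not pass the test. HIST1H2BD had 1672, 1829.7 and 1293 RPKM, a log2 change of -0.53 ± 0.19 (adjusted p = 0.124, edgeR), and HIST1H2BC had 1830.4, 1924 and 1785 RPKM. The H3 genes HIST2H3A (1346, 1979 and 1322 RPKM) and HIST1H3H (2008, 2598 and 2321 RPKM) gave G418 values near or inside the untreated range. HIST1H4J (911, 1418 and 987 RPKM), HIST1H4E (2174, 2539 and 2421 RPKM) and HIST1H2AI (517, 817 and 637 RPKM) lay inside that range. Of the 26 genes only HIST1H4H had a positive log2 change, 0.17 ± 0.18. Of the variants, H2AFV had 295, 324 and 409.5 RPKM and a log2 change of 0.31 ± 0.20 (adjusted p = 0.59, edgeR), the highest of the 8, and H3F3C had 266, 304 and 241 RPKM and a log2 change of -0.34 ± 0.21 (adjusted p = 0.548, edgeR), the lowest of the 8. The H3.3 genes H3F3B (688, 890.5 and 707 RPKM) and H3F3A (457, 579 and 465 RPKM), H2AFX (399, 687 and 497 RPKM) and H1FX (144, 229.7 and 195 RPKM) stayed inside the untreated range.

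The median log2 change was -0.40 over the 26 replication-dependent genes and -0.19 over the 8 variants, against 0.00 over all transcripts. The G418 density lay below both untreated densities in 18 of 26 replication-dependent genes and in 1 of 8 variants, against 25.4% of all transcripts. Untreated B itself lay above Untreated A in 23 of 26 replication-dependent genes and in 8 of 8 variants, with median log2 ratios of 0.31 and 0.21, against 0.01 over all transcripts. This spread is of the size of the median change. Against Untreated A alone the medians were -0.25 and 0.04, and against Untreated B alone -0.58 and -0.35. The 8 called genes were lower than either library taken alone, with the smallest log2 ratio that of HIST2H4B over Untreated A, -0.44.

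**Figure D3:**
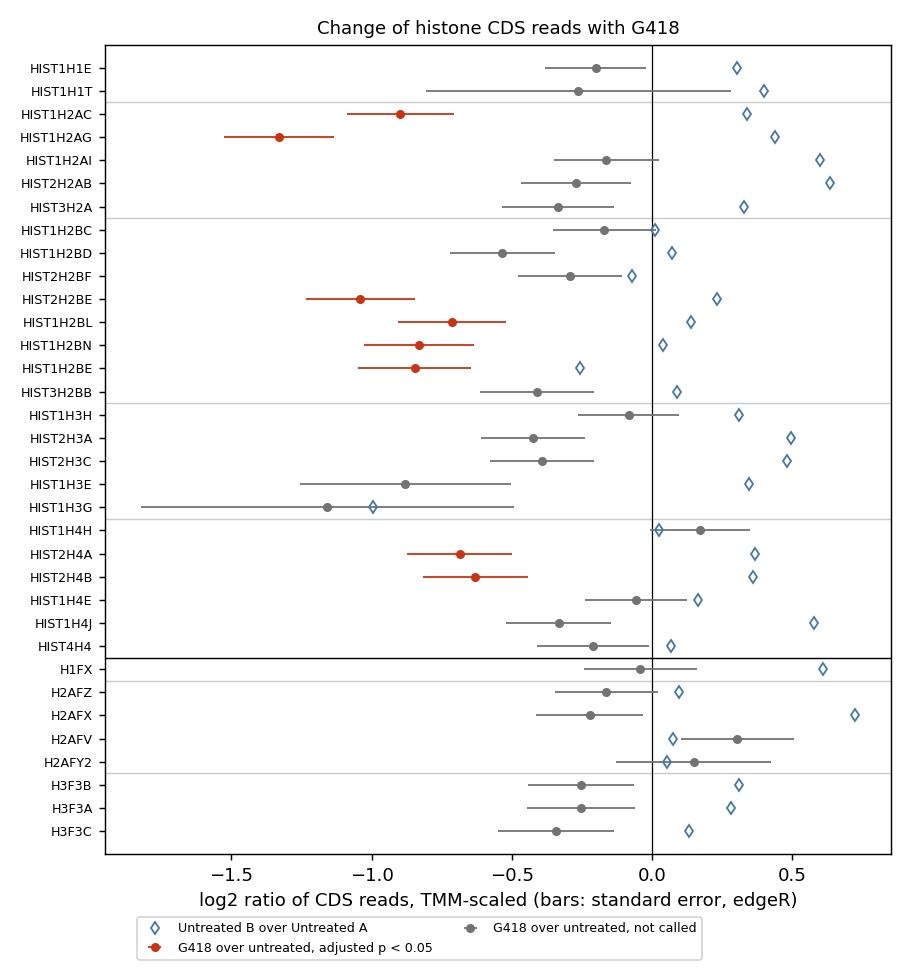
Log2 ratio of CDS reads, G418 A over the untreated libraries (filled circles with standard errors; red, adjusted p under 0.05), and Untreated B over Untreated A (open diamonds), for each histone gene. The 8 called genes lie between -1.33 and -0.63, while most diamonds lie to the right of 0.

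Because reads may be credited to the wrong copy within a family, the listed replication-dependent genes were also summed by family. The tables list 5 of 17 H2A, 8 of 18 H2B and 6 of 15 H4 genes in GENCODE v44. Reads credited to unlisted copies are not in these sums. The listed H2A genes together had 1280.3, 1810.0 and 985 RPM, a log2 change of -0.74 ± 0.19 (adjusted p = 0.0115, edgeR), which was the only family called. In Untreated A the called genes HIST1H2AG and HIST1H2AC held 2526 and 2510 of its 7499 CDS reads. DESeq2's test put this family just past the threshold (adjusted p = 0.0553). H2B genes had 2794, 2998 and 2187 RPM, a log2 change of -0.50 ± 0.18 (adjusted p = 0.16, edgeR). H4 genes had 3221, 4020.1 and 3195 RPM (-0.28 ± 0.18), H3 genes 1796, 2491 and 1895 RPM (-0.27 ± 0.18) and H1 genes 1554, 2001 and 1651 RPM (-0.20 ± 0.18), and none of these 3 passed the test. In H2A, H2B and H4 the G418 sum lay below both untreated sums, in H4 by little. Whether misassigned reads contributed to any single gene's change was not tested. The 9 replication-dependent genes that share less than 10% of their CDS had a median log2 change of -0.21 and no calls, and the 17 that share more had a median of -0.53 and all 8 calls.

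The second question was how far ribosomes passed the stop codons of histone messages. The readthrough score is the density of reads from the NTC to the first in-frame stop codon, without the first 6 nt, over the CDS density of the same transcript, given here in percent. Sequence around some stop codons is shown because the first bases after the stop affect termination; the stop codon is in capitals, followed by 12 nt of 3′UTR in hg38.
HIST1H4J, chr6:27824434-27824448, plus strand: TGAgcgtccctttct
HIST1H3H, chr6:27810482-27810496, plus strand: TGAgtctcaaggact
HIST1H2AG, chr6:27133462-27133476, plus strand: TAActatctgtacta
HIST1H2AI, chr6:27808600-27808614, plus strand: TAGaagcctggatta
HIST2H3A, chr1:149853063-149853077, plus strand: TAAgaagtggcggtt
HIST1H2BE, chr6:26184174-26184188, plus strand: TAAacttgtccctgc
H3F3B, chr17:75778579-75778593, minus strand: TGAaggcagttttta

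Pooled over the 26 replication-dependent genes, the score was 0.618% and 0.446% in the untreated libraries (mean 0.532% ± 0.122, SD, n = 2) and 7.87% in G418 A (exact 95% Poisson interval 7.51% to 8.25%). The variants had 1.64% and 1.24% (mean 1.44% ± 0.281, SD, n = 2) and 18.1% in G418 A (15.9% to 20.5%). Over all transcripts the pooled score was 1.67% and 1.34%, and 21.6% in G418 A. The ratio of G418 to untreated was 14.8-fold for replication-dependent genes, beside 14.4-fold for all transcripts and 12.6-fold for variants. Intervals cover counting error only. The distance between the classes rests on few genes. HIST2H3A and HIST2H3C have a readthrough region of 582 nt in the tables, while GENCODE v44 ends both messages 60 nt after the NTC, and so they weigh heavily in a pooled score. Without this pair the replication-dependent score was 1.11%, 0.816% and 12.7% (12.01% to 13.3% in G418 A). Without H3F3B, which held the most 3′UTR reads of the variants in G418 A, the variant score in G418 A was 11.99%. With both changes the replication-dependent score in G418 A is the higher one, and no difference in level between them is drawn from these scores.

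In G418 A the pooled score was 26.3% in replication-dependent H2A (23.9% to 29.0%), 16.4% in H1, 9.37% in H2B (8.33% to 10.5%), 9.29% in H4 (8.49% to 10.1%) and 3.58% in H3 (3.24% to 3.95%). The untreated means were 2.80% in H1, 2.12% in H2A, 0.742% in H2B, 0.386% in H4 and 0.0822% in H3. Untreated A followed the order of G418 A, with 2.74% in H2A and 2.45% in H1. In Untreated B these 2 families changed places, with 3.16% in H1 and 1.51% in H2A. Every H1 readthrough read was that of HIST1H1E. Variant H2A genes had 11.4% and variant H3 genes 23.9% in G418 A. The rank of H3 depends on HIST2H3A and HIST2H3C, which held 344 of its 408 readthrough reads in G418 A. The other 3 H3 genes had 0, 0 and 64 readthrough reads and a pooled score of 29.7% in G418 A (22.9% to 37.9%), which is the highest value of any family instead of the lowest. Of these 64 reads 61 were those of HIST1H3H, in a region of 12 nt. The interval overlaps that of H2A, so the 2 families are not separated.

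**Figure D4:**
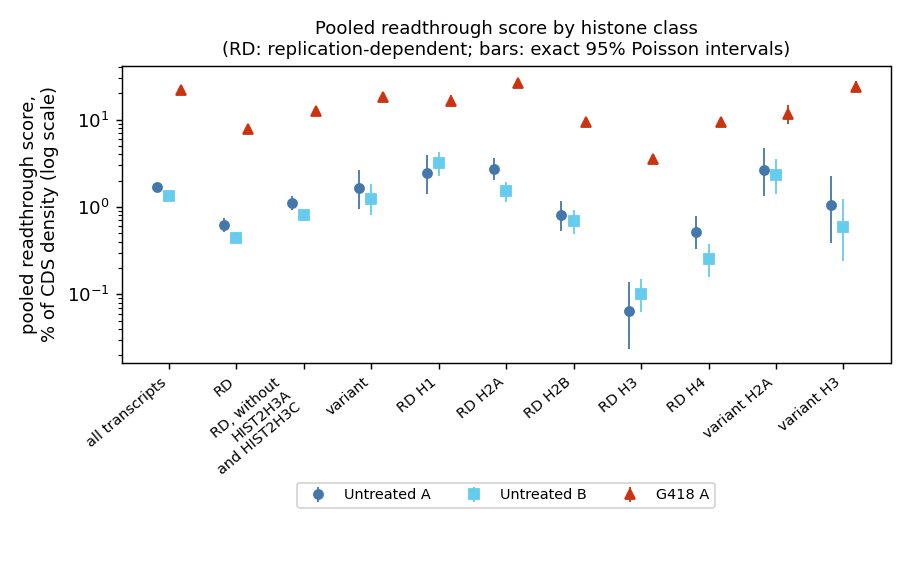
Pooled readthrough score in percent of CDS density, on a log axis (vertical), for all transcripts and each class and family of histone genes in the 3 libraries, with exact 95% Poisson intervals. Every class lies higher in G418 A, from 3.58% in replication-dependent H3 to 26.3% in replication-dependent H2A, and leaving out HIST2H3A and HIST2H3C moves the replication-dependent value in G418 A from 7.87% to 12.7%.

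Split by stop codon, the replication-dependent genes ending in UAA had a pooled score of 0.484%, 0.344% and 5.99%, those in UAG 1.32%, 0.956% and 14.2%, and those in UGA 0.379%, 0.332% and 11.2%. All transcripts with these stop codons had 12.4%, 19.3% and 30.1% in G418 A. The UAA group holds HIST2H3A and HIST2H3C, and without them its score was 1.34%, 0.977% and 12.2%. The order of the 3 stop codons among replication-dependent genes thus differed between libraries and with this pair.

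Reads in the readthrough region, relative to CDS density, were higher in G418 A for 7 of the 23 replication-dependent genes tested and for 1 of 8 variants (adjusted p under 0.05, edgeR quasi-likelihood test over 5684 transcripts). Of the histone genes, HIST1H1T, HIST1H3E and HIST1H3G lay under the minimum on CDS reads, and the nearest genes on either side of it were HIST1H3E, with a mean of 122 CDS reads, and H2AFY2, with 229. Over all transcripts tested 3.85% were called, all of them higher. The share of calls rose with read depth: with a minimum of 500 CDS reads, 283 of 2408 transcripts were called. No call was made, in histone genes or elsewhere, with edgeR's newer estimate of the spread, where the called histone genes had adjusted p-values of 0.0750 to 0.0984. In simulated data with a dispersion of 0.5, below the fitted 0.729, no 16-fold rise was recovered. There 100 transcripts were raised 4-fold and 100 were raised 16-fold out of 5684, whereas most transcripts rose in the data, so the simulation gives no recovery rate for them. Genes that were not called cannot be taken as unaltered. The median log2 change was 4.23 over the 23 genes and 3.59 over the 8 variants, against 3.47 over all transcripts.

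HIST1H4J and HIST1H3H had no readthrough reads in either untreated library. HIST1H4J, an H4 gene ending in UGA with a 3′UTR of 44 nt, had 0, 0 and 65 readthrough reads and a score of 28.5% in G418 A (adjusted p = 0.00576, edgeR). With a floor of 3 reads over both untreated libraries this is at least 57.1-fold higher. Every 28-base stretch of its CDS also occurs in at least 1 of 6 other genes, so that the CDS density under the score is uncertain. No stretch in the 80 nt after its stop codon was found in an annotated protein-coding transcript of another gene. That search did not reach past annotated ends and left out stretches across the stop codon. HIST1H3H had 0, 0 and 61 reads in a region of only 12 nt, a score of 30.4% in G418 A and a ratio of at least 44.2-fold (adjusted p = 0.00945, edgeR). Its whole 3′UTR had 0, 4 and 145 reads, so that reads were also counted beyond its first in-frame stop codon, and 6.84% of its CDS is shared.

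HIST1H2AG had the highest score of any histone gene in G418 A. Its readthrough reads were 26, 26 and 205, giving 4.26%, 1.86% and 53.2% of CDS density (log2 change 4.13 ± 1.16, adjusted p = 0.0172, edgeR). HIST1H2AG was also the gene with the largest fall in CDS reads among those called, and the CDS density is the denominator of the score. HIST1H2AI, which ends in UAG with adenine next, had 6.45%, 2.97% and 45.8% and was not called (adjusted p = 0.0918, edgeR). HIST2H2AB had 7.95%, 6.82% and 16.7%, from only 4, 9 and 12 reads. HIST1H2AC, one of the transcripts without a stem-loop match, had 0.245%, 0.345% and 1.35%. Its stop codon lies in exon 1 of 2, and with the 12 nt after it spans chr6:26124623-26138057. Its readthrough region thus lies largely past a splice junction, and the score does not describe an unspliced message of this gene. G418 values differed between H2A genes by more than the untreated libraries differed within any of them.

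The duplicated pairs gave the remaining calls among replication-dependent genes. HIST2H3A had 3, 10 and 168 readthrough reads, or 0.0654%, 0.0916% and 3.03% (log2 change 5.20 ± 1.29, adjusted p = 0.00576, edgeR), and HIST2H3C had 3, 12 and 176 reads. HIST2H4A had 0.926%, 0.236% and 11.7% (log2 change 4.39 ± 1.33, adjusted p = 0.0341, edgeR), a call lost with a minimum of 20 CDS reads (adjusted p = 0.0526), and HIST2H4B had 0.316%, 0% and 10.5% (adjusted p = 0.00607, edgeR). Taken as 1 message, HIST2H4A and HIST2H4B together had 12, 5 and 208 readthrough reads, a score of 0.625%, 0.120% and 11.1%. The other H4 genes had lower values in G418 A than HIST1H4J, with 5.78% in HIST1H4H and 7.29% in HIST1H4E.

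Among H2B genes, HIST1H2BD had 2.59%, 1.56% and 25.3% (adjusted p = 0.061, edgeR), HIST2H2BE had 0.486%, 0.654% and 11.2%, and HIST1H2BC had 0.592%, 0% and 7.76%. HIST1H2BL had 0, 12 and 11 readthrough reads, so its G418 score of 4.30% is not clear of the 2.18% in Untreated B. HIST1H2BE and HIST2H2BF had no read in the 3′UTR of any library. With 703 CDS reads in G418 A, 0 reads allow a score of up to 3.91% for HIST1H2BE, and for HIST2H2BF, with 2888 CDS reads, up to 0.495%. Both limits lie below the median score of all replication-dependent genes, 9.71%. HIST2H2BF is one of the spliced transcripts, with a CDS of 405 nt that ends in exon 2, against 381 nt for HIST1H2BE. Its limit holds for that stop codon and gives no value for the stop codon of an unspliced message. Other genes share 88.1% of the HIST2H2BF CDS and 49.5% of the HIST1H2BE CDS, so the CDS densities under both limits are uncertain. In HIST2H2BF no stretch in the 80 nt after the stop codon was found in an annotated protein-coding transcript of another gene.

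The linker histone HIST1H1E had 16, 43 and 140 readthrough reads, a score of 2.46%, 3.17% and 16.4% (adjusted p = 0.29, edgeR), so its untreated score was among the higher ones. Of the variants, H3F3B had 5, 7 and 144 readthrough reads and 1.25%, 0.838% and 28.5% (log2 change 4.77 ± 1.30, adjusted p = 0.0134, edgeR). H3F3A, the other H3.3 gene, had 0, 0 and 12 reads and 11.2% in G418 A, and it was not called. The H3F3B transcript used here has a CDS of 342 nt in GENCODE v44, against 411 nt for H3F3A. The 2 scores may therefore not concern the stop codon of the same reading frame. H3F3C had 1.12%, 0% and 14.1%. H2AFZ had 3.74%, 2.76% and 18.7%, and H2AFY2 had 0%, 6.42% and 22.2% from 0, 1 and 3 reads. H2AFX, the variant with the stem-loop, had 0.793%, 1.14% and 3.10%. H2AFV was the one variant without a higher value in G418 A, with 1, 3 and 0 reads, where 0 reads allow up to 4.83%. The H2AFV transcript used here has a CDS of 345 nt, against 387 nt for H2AFZ, and this limit holds for its stop codon only. The score in G418 A exceeded both untreated scores in 22 of 26 replication-dependent genes and 7 of 8 variants, against 59.9% of all transcripts, most of which have far fewer reads.

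**Figure D5:**
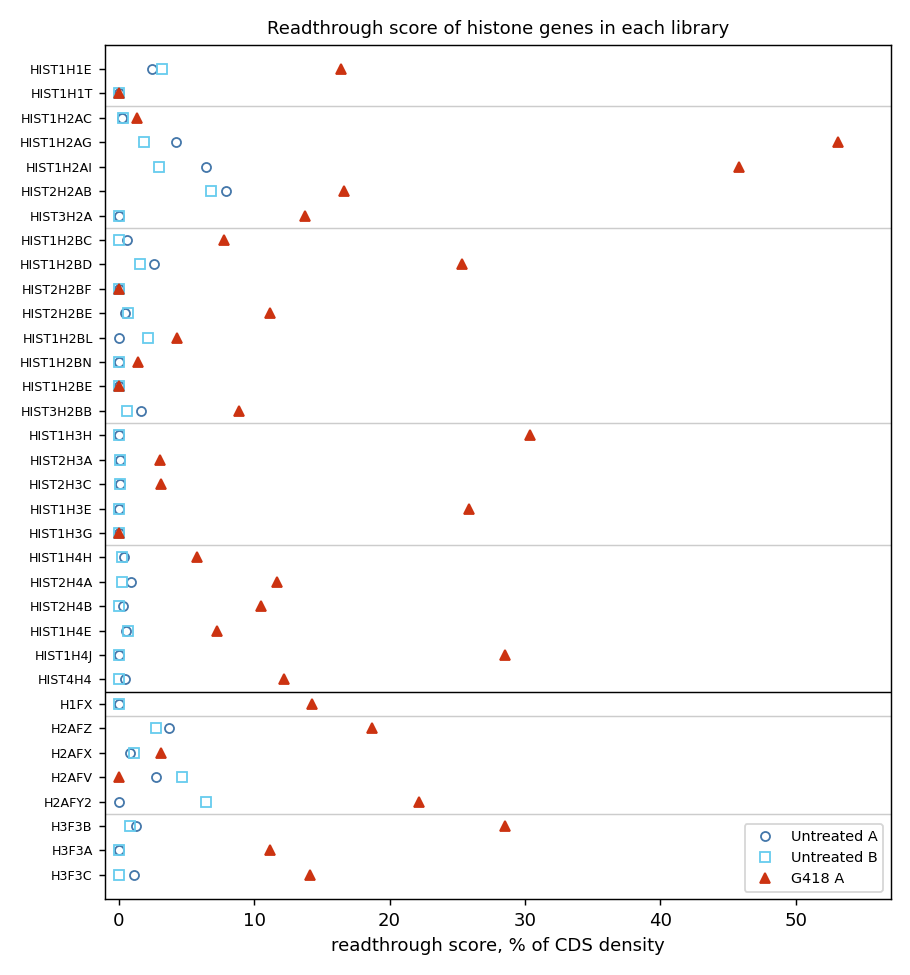
Readthrough score in percent of CDS density (horizontal) of each histone gene in Untreated A (open circles), Untreated B (open squares) and G418 A (filled triangles). HIST1H2AG at 53.2% and HIST1H2AI at 45.8% lie farthest right in G418 A, and untreated values stay at or below 7.95%.

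The place of the reads within the 3′UTR differed between the classes, although no test of the difference was run. In replication-dependent genes 90.9%, 88.6% and 92.9% of 3′UTR reads lay in the readthrough region, whereas the shares were 27.0%, 36.5% and 64.3% in variants and 33.4%, 31.9% and 64.4% over all transcripts. For the 10 replication-dependent genes with an annotated 3′UTR over 1000 nt, where the readthrough region is a small part of the whole except in HIST2H3A and HIST2H3C, the shares were 85.2%, 92.8% and 98.8%. In GENCODE v44, however, 5 of these 10 have a 3′UTR of less than 100 nt. Their messages may hold little sequence past the first in-frame stop codon, so these shares depend on the annotation. Genes with no in-frame stop codon have a region that spans nearly the whole 3′UTR. Among the 19 genes with one the shares were 86.8%, 80.5% and 90.9%. In G418 A, HIST1H3H had 61 of 145 reads there and HIST3H2A, named here after its values were seen, had 8 of 37. These are the genes in which the stem-loop begins beyond the first in-frame stop codon. These are descriptions of reads summed over genes, with 132, 211 and 1892 3′UTR reads in all for the replication-dependent genes.

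Whole 3′UTR occupancy, the density of the entire 3′UTR over that of the CDS, was 0.117% and 0.0906% in the untreated libraries for the replication-dependent genes pooled (mean 0.104% ± 0.0186, SD, n = 2) and 1.62% in G418 A. For variants it was 0.445% and 0.258% (mean 0.351% ± 0.132, SD, n = 2) and 1.82% in G418 A, and for all transcripts 0.369%, 0.326% and 2.44%. On this measure the ratio of G418 to untreated was 15.7-fold for replication-dependent genes and 5.16-fold for variants, beside 7.03-fold for all transcripts. In a test of whole-3′UTR reads, 13 of 23 replication-dependent genes and 2 of 8 variants were called higher, against 9.55% of the 5684 transcripts tested. Genes of a duplicated pair count separately here. Histone genes have a higher CDS density than most transcripts, and whether read depth accounts for their higher share of calls was not tested. H1FX, a linker histone variant, was one of them, with 0, 0 and 39 whole-3′UTR reads (adjusted p = 0.0126, edgeR) of which 12 lay in the readthrough region.

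Genes that make, use and degrade histone mRNA were examined beside the histones. None of the 9 listed genes of histone pre-mRNA 3′ end processing, the 9 of histone mRNA translation and decay, or the 16 histone chaperones was called in CDS reads in either direction, beside 0.374% and 1.13% of all transcripts. Their median log2 changes were -0.16, -0.06 and -0.26. SLBP had 121, 106 and 95.8 RPKM, a log2 change of -0.34 ± 0.21 (adjusted p = 0.569, edgeR), with untreated values that lay above the G418 value. Its readthrough reads were 0, 0 and 18, a score of 66.8% in G418 A that was not called (adjusted p = 0.34, edgeR). In readthrough 1 of the 16 chaperone genes was called and none of the other 16 tested, beside 3.85% of all transcripts tested. That gene, MCM2, a helicase subunit that also binds H3 and H4, had 0, 0 and 76 readthrough reads and a score of 86.4% in G418 A (adjusted p = 0.00175, edgeR), and its CDS density was 75.8, 77.0 and 54.2 RPKM.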

How the data were processed

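RPFs of 28 to 35 nt had been sequenced from 3 libraries of HEK293T cells. Per the study's methods the authors collapsed duplicate reads by molecular identifier, discarded noncoding RNA and aligned the rest with STAR (named in the submitters' processing notes, with hg38) guided by GENCODE, keeping 1 alignment per read. The authors deposited RPM values, RPKM densities, 2 ratio columns (readthrough score, whole 3′UTR occupancy) and whole-number counts per transcript. CDS densities leave out 33 nt at the ends of the CDS. Of the RPM values of regions, 100% were whole multiples of 1 read (tolerance 0.01 reads), so reads were recovered by division, and the deposited counts, which were 1 lower for 9080 CDSs in Untreated A, served as an alternative. Transcripts with a CDS density below 1 RPKM were absent from the tables, and 8812 were listed in all 3.

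CDS reads were tested with edgeR 4.0.16 (R 4.3.3; TMM scaling, glmQLFit with its earlier estimate of the spread), and readthrough reads with the log of the reads expected from the CDS density as offset, for transcripts past a minimum mean number of CDS reads taken from the study's methods. DESeq2 1.42.0 was an alternative. Both tests were tried on simulated data. For CDS reads with 8812 genes and a dispersion of 0.02, near the fitted 0.0209, 82% of 4-fold and 12% of 2-fold falls were recovered. For readthrough with 5684 genes, 22% of 16-fold rises were recovered at a dispersion of 0.1 and 0% at 0.5, where the fit gave 0.729. Stop codons of all 34 genes matched hg38, and sequences, exon counts and shared 28-base stretches were read from hg38 and GENCODE v44. The newer edgeR estimate of the spread was added after the data were seen. Members, gene lists and tests were chosen with earlier results of these data known. Genes were named by this rule: all variants; of each replication-dependent family the 4 genes with the most CDS reads; any other gene called in either test; HIST1H4J; SLBP and called genes of the lists.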

Additional observations from a re-analysis of the deposited data

How the results depend on the processing

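With 1 G418 library no test sees variation between G418 cultures, and copies that share sequence limit single-gene values. No paired analysis was possible because only the letter A is shared between the groups. All histone genes were listed in all 3 tables, so family sums over genes listed in any table were the same. The counts of replication-dependent genes called lower in CDS reads were 7 or 8 of 26 with the RPM scale, DESeq2 size factors, the CDS read minimum of the readthrough test, whole-number counts and the newer edgeR estimate, and 4 with DESeq2's test, which called 21 of all transcripts in place of 133 and gave no adjusted p for 4784. On the RPM scale all transcripts shifted by 0.10 (log2), with 187 higher and 31 lower calls in place of 100 and 33, and 218 calls in all against 133. The summed H2A genes had a log2 change of -0.75 and lost their call with DESeq2's test. Without one of the untreated libraries the log2 change of the sums ranged from -0.95 to -0.51 for H2A, from -0.52 to -0.48 for H2B, from -0.46 to -0.05 for H3, from -0.40 to -0.14 for H4 and from -0.35 to -0.04 for H1, and the class medians from -0.58 to -0.25 for replication-dependent genes and from -0.35 to 0.04 for variants.

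Some genes that were not called changed direction. On the RPM scale the log2 change was 0.011 in HIST1H3H, 0.039 in HIST1H4E and 0.049 in H1FX. With 1 untreated library left out, it ranged from -0.43 to 0.17 in HIST1H2AI, from -0.55 to 0.089 in HIST2H2AB, from -0.23 to 0.082 in HIST1H3H, from -0.14 to 0.028 in HIST1H4E, from -0.53 to 0.19 in H2AFX and from -0.31 to 0.30 in H1FX, positive without Untreated B in each.

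Readthrough calls among replication-dependent genes numbered 7, and 6, 12, 13 and 0 with a minimum of 20 reads, a minimum of 500 reads, the whole 3′UTR and the newer edgeR estimate. For variants they numbered 1, and 1, 1, 2 and 0. Over all transcripts the numbers were 219, and 167, 283, 543 and 0. As medians over genes the readthrough scores in G418 A were 9.71% for replication-dependent genes and 14.2% for variants, and the untreated means 0.191% and 0.973%. The median whole 3′UTR occupancies in G418 A were 1.49% and 2.74%, and the untreated mean 0.0511% for replication-dependent genes. Without HIST2H3A and HIST2H3C, left out after the data were seen, the replication-dependent score was 12.7% in G418 A and 0.964% in the untreated mean, while whole 3′UTR occupancy moved little (1.66% and 0.117%). Without the gene with the most 3′UTR reads the G418 scores were 7.07% (without HIST1H2AG) and 11.99% (without H3F3B), and the variants' whole 3′UTR occupancy was 1.14%. Leaving out either untreated library gave untreated scores of 0.446% to 0.618% for replication-dependent genes and 1.24% to 1.64% for variants, and whole 3′UTR occupancies of 0.0906% to 0.117% and 0.258% to 0.445%. The causes of these shifts were not tested.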

Other observations

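Reads in the 5′UTR, a region that the comparisons above did not use, were also counted. In replication-dependent genes there were 723, 1148 and 473 such reads (Untreated A, Untreated B, G418 A). Per 100 CDS reads this was 1.16 and 0.909 in the untreated libraries (mean 1.03 ± 0.177, SD, n = 2) and 0.661 in G418 A, against 2.42, 2.52 and 2.25 over all transcripts. Variants had more, between 5.68 (G418 A) and 7.52 (Untreated A) per 100 CDS reads. HIST1H1E had 101, 187 and 23 reads in its 5′UTR, while its CDS reads were 9074, 18904 and 11875. HIST4H4, picked here after its values were seen, had 52, 57 and 5 reads. HIST2H3C had 36, 118 and 74. Per 100 CDS reads the summed H1 genes had 1.11, 0.986 and 0.193 and the summed H3 genes 1.29, 1.34 and 1.46. In H2A, H2B and H4 genes the G418 value lay below both untreated values, as in H1. Without HIST2H3A and HIST2H3C the H3 values were 1.60, 0.923 and 0.919, so the higher H3 value in G418 A rests on this pair. H2AFZ had the most 5′UTR reads of any histone gene, 260, 432 and 321. No test was run on these values, and the G418 group had 1 library.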
